A study of Felis catus with 12 samples.

Results

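The mitochondrial ribosomal protein genes were the 78 genes, of 30785 listed in the counts table, whose symbol begins with MRPL or MRPS followed by a number. Of these, 49 carry the MRPL prefix of the large subunit and 29 the MRPS prefix of the small subunit. Left ventricular free wall RNA was collected post mortem from client-owned cats, most of them euthanized, and sequenced directly on Oxford Nanopore flow cells as native RNA molecules. Each of the 12 cats gave a single library, without a repeat. Libraries were run as 4 barcodes on each of 3 flow cells: A held cats 11, 23, 30 and 31, B held cats 10, 15, 35 and 36, and C held cats 22, 29, 37 and 38. No cat carried a transgene or received an experimental treatment. Outcome was a clinical grouping and not a formal diagnosis of hypertrophic cardiomyopathy: congestive heart failure (HF) for 6 cats (3 on A, 2 on B and 1 on C), arterial thromboembolism (ATE) for 3 cats (1 on each flow cell) and no known cardiac death for cat 36 on B. The libraries labelled as cats 22 and 29 do not match the study's list of sequenced cats, and they entered the comparison of flow cells but no comparison of outcome, fibrosis or age, apart from named alternatives. Each flow cell held different cats, so a difference between flow cells cannot be told apart from a difference between those cats.

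The mitochondrial ribosome, or mitoribosome, translates the few messenger RNAs that mitochondrial DNA encodes, all of them for subunits of the respiratory chain and ATP synthase. Its ribosomal RNAs come from mitochondrial DNA, whereas its proteins are encoded in the nucleus, made in the cytosol and imported. Part of the proteins are homologues of bacterial ribosomal proteins, and the others were gained in the mitochondrial lineage and lie largely on the outside of the particle. Cardiac muscle has a high demand for respiratory chain subunits, and inherited defects of several mitoribosomal proteins cause cardiomyopathy in people. In the lists used here, 30 genes were bacterial homologues of the large subunit, 21 were specific to mitochondria in the large subunit, 16 were bacterial homologues of the small subunit and 10 were specific to mitochondria in the small subunit. The remaining gene, MRPS36, has kept its symbol although its product is now known as a subunit of the 2-oxoglutarate dehydrogenase complex.

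Depth was sufficient for every one of the 78 genes to be tested. The 12 libraries held between 789257 and 2263110 reads on genes, and the 78 genes took 99468 reads in all. No gene was without a read in any library, 11 had under 10 reads in at least 1 library, and 11 had at least 100 reads in every library. Their median count was 70 reads per gene and library, against 28 for the 8715 genes tested, which had 10 or more reads in 3 or more of the 10 libraries whose outcome was known. MRPL12, MRPL15 and MRPL33 had the most reads (5493, 3961 and 3763 over the 12 libraries) and MRPL54, MRPL36, MRPL35 and MRPL42 the fewest (98, 124, 159 and 159). These counts set the precision of each gene, and they were not used to rank the genes by expression. The values compared from here on are the deposited ones, reads divided by 1 size factor per library, called scaled reads. The variance between the 12 libraries was more than 2 times the counting variance for 71 of the 78 genes and more than 10 times for 23 genes. The median of this ratio was 5.64 for the 78 genes and 4.56 for all genes tested. The median coefficient of variation, which includes counting error, was 30.5% for the 78 genes and 40.0% for all genes tested.

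Tissue markers showed cardiac muscle in every library. The summed scaled reads of 6 cardiomyocyte markers (TNNT2, TNNI3, ACTC1, MYL2, MYL3 and ACTN2) ranged from 110798 to 182876 on flow cell A and from 112254 to 238075 on flow cells B and C. The 3 atrial markers summed to between 6.757 and 63.0 on A and between 14.9 and 619.9 on B and C. Smooth muscle markers (MYH11, ACTA2 and TAGLN) stood apart, with 321.5 to 858.1 scaled reads on A against 88.5 to 283.3 elsewhere, a ratio of means of 3.38. Ranges of the 5 fibroblast markers (810.4 to 2668 and 246.4 to 1493), the 4 endothelial markers (434.7 to 714.6 and 320.5 to 1153) and the 5 leukocyte markers (166.6 to 425.1 and 90.5 to 1151) overlapped, as did those of 3 adipocyte markers (1.34 to 5.05 and 1.35 to 12.4) and 2 erythroid markers (1.34 to 19.1 and 0 to 59.9). None of these markers was at 0 over all libraries. In whole tissue, fewer cells of a type and less RNA per cell cannot be told apart.

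Summed over the 78 genes, scaled reads were lower on flow cell A than on the other flow cells, with 1 pair of libraries crossing. On A the sums were 6157, 6226, 5794 and 7364. On B they were 8283, 8590.3, 7139 and 9052, and on C they were 8469.5, 10069.5, 8483 and 8668. Cat 31 on A lay above cat 35 on B, and every other library of A lay below all libraries of B and C. The means were 6385 ± 680 on A (SD, n = 4) and 8594 ± 814 on B and C together (SD, n = 8). As a share of all reads on genes, which does not depend on the size factors, the 78 genes took 0.564% to 0.587% on A, 0.579% to 0.650% on B and 0.695% to 0.740% on C. The lowest share had a 95% Wilson interval of 0.554% to 0.573% (cat 11) and the highest one of 0.725% to 0.755% (cat 29), which covers counting error only. By share, cat 36 on B (0.579%) fell within the range of A, and the 4 libraries of C lay above all others. No test was made of a sum over the genes.

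**Figure D1:**
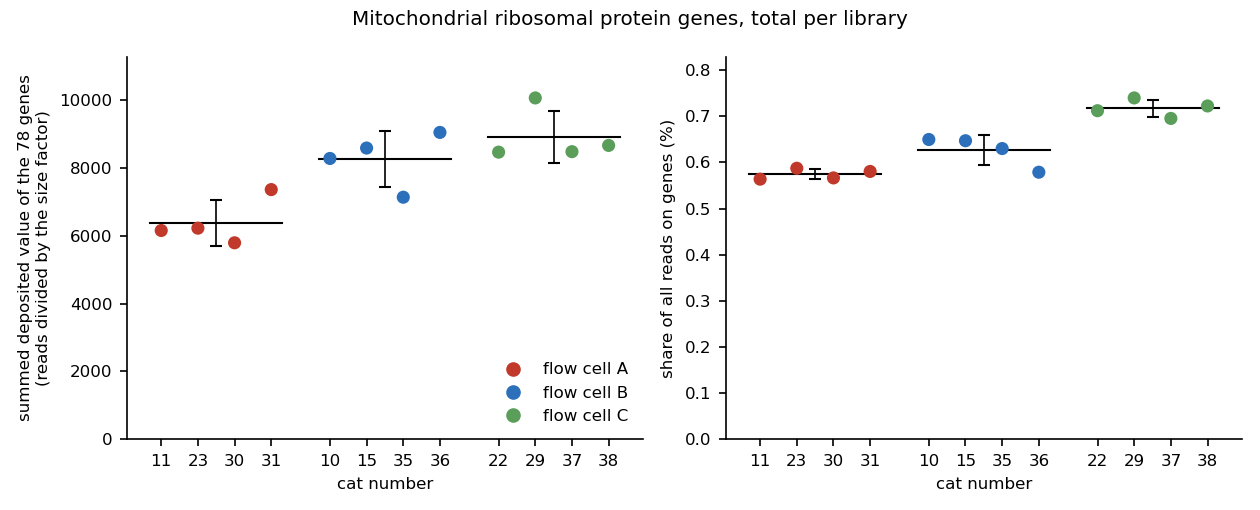
Summed scaled reads of the 78 mitochondrial ribosomal protein genes (left) and their share of all reads on genes in percent (right), 1 point per library, coloured by flow cell. Lines and bars are the mean and SD of the 4 libraries of a flow cell. Libraries of A have the lowest sums, except for cat 31 (7364), which lies above cat 35 on B (7139), and their shares run from 0.564% to 0.587%.

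Gene by gene, 9 of the 78 genes were lower on flow cell A than on the mean of B and C at a limma adjusted p under 0.05, and 0 were higher. Over all 8715 genes tested, 3.61% were called lower and 1.84% higher. The 78 genes had more reads than these (medians of 70 and 28), and genes with more reads were called more often. In a fit limited to genes with a mean of at least 50 reads, 14 of 52 members and 350 of all 3084 genes were called lower. At an unadjusted limma p under 0.05 there were 27 of the 78 genes and 1920 of all 8715. Of the 27 genes 1, MRPS10, was higher on A. edgeR called 7 of the 78 genes and DESeq2 16, all of them lower on A. Over all 8715 genes, edgeR called 247 lower and 218 higher, and DESeq2 478 lower and 346 higher. The log2 difference was negative for 60 of the 78 genes. Its median was -0.33, against 0.03 for all genes tested, but without the size factors the median was 0.06 against 0.41 for all genes. Relative to the median of all genes, 62 of the 78 genes lay below it with the size factors and 62 without them. In 6 genes (7.69%) all 4 libraries of A lay below the other 8, where this held for 2.51% of all genes tested, and no gene had all 4 libraries of A above, where this held for 1.72%. The 9 calls depended on a scaling for depth. On reads without the size factors, limma called 0 of the 78 genes. Over all genes it then called 96 as higher and 6 as lower on A, in place of 160 and 315. With TMM scaling in place of the size factors, 9 of the 78 genes were called. The 9 calls also rested partly on cat 11, without which 3 genes were called. Among the 6 cats with congestive HF alone, 3 against 3, 0 of the 78 genes were called. With these 6 cats, 14 of the 78 and 1424 of all 8715 genes had an unadjusted limma p under 0.05. Marker sums also differed, with ratios of means (A over the others) of 3.38 for smooth muscle, 1.81 for fibroblast and 0.77 for cardiomyocyte markers. Ranges of the fibroblast and cardiomyocyte markers overlapped. The part of the markers in the difference of the 78 genes was not tested.

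**Figure D2:**
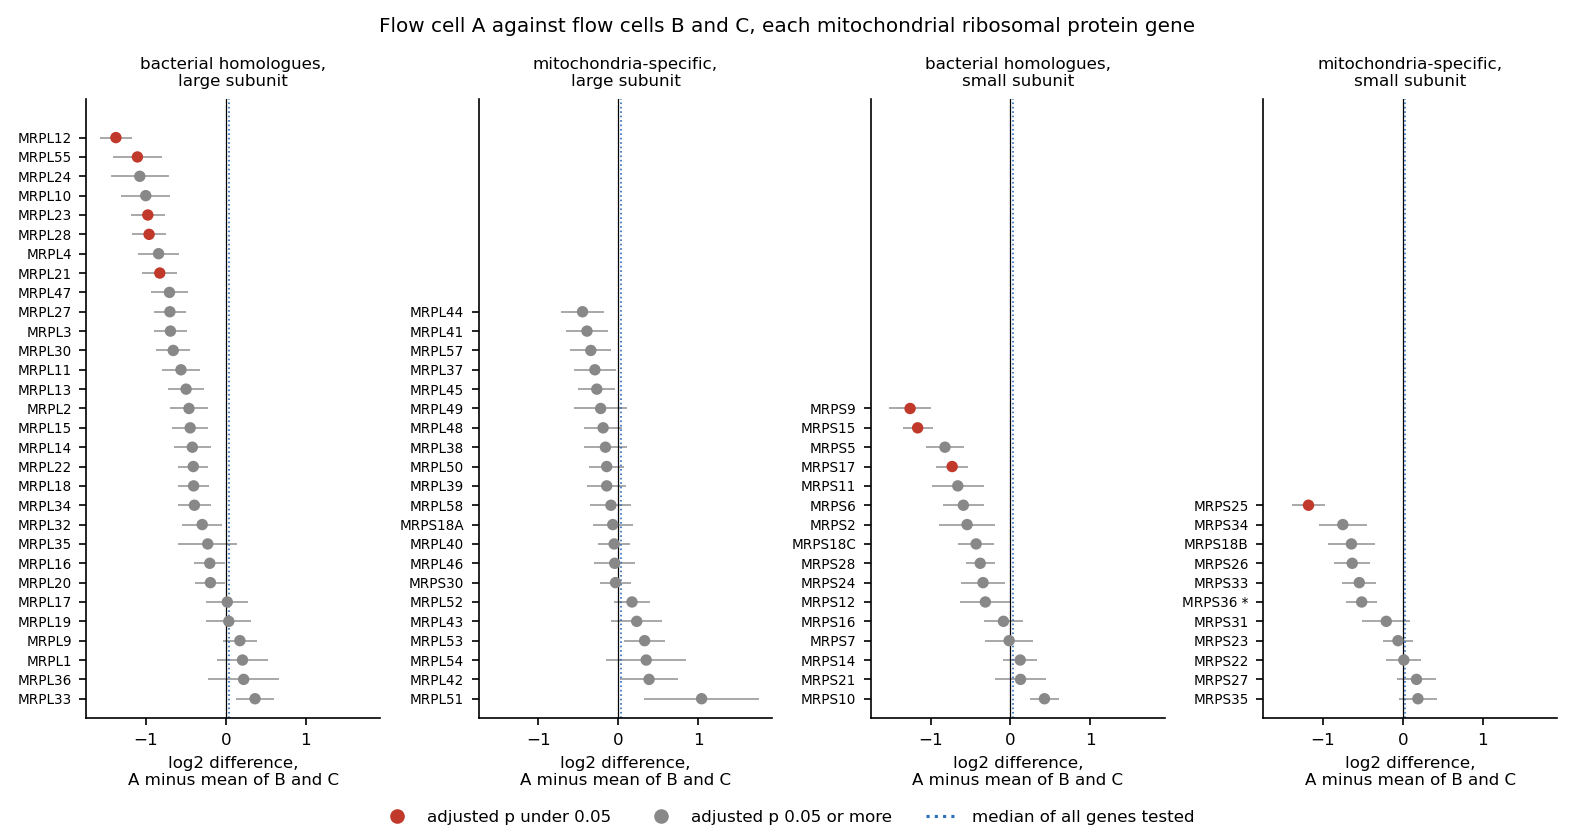
Log2 difference between flow cell A and the mean of B and C for each of the 78 genes, with the standard error from limma, by list. Points in red have an adjusted p under 0.05, the dotted line is the median of all genes tested (0.03), and the asterisk marks MRPS36, which is in none of the lists. Of the 9 genes called, 5 are bacterial homologues of the large subunit and 0 are among the 21 mitochondria-specific genes of the large subunit, where the median was -0.09 (0.29 without the size factors).

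MRPL12, the stalk protein that recruits translation factors and has also been found with the mitochondrial RNA polymerase, showed the smallest adjusted p. On A it had 169.9, 313, 210.4 and 189.8 scaled reads, on B 475, 526, 470.3 and 446 and on C 564, 951, 535 and 636. No library of A reached the lowest of the other 8. The log2 difference was -1.38, SE 0.20, limma adjusted p = 0.00232, a 2.60-fold lower level. MRPL12 took 2.58% to 5.03% of the reads of the 78 genes on A, against 4.93% to 9.44% on B and C, so the ranges of this share overlapped. MRPL10, which anchors the MRPL12 stalk to the large subunit, had 18.3, 17.5, 15.2 and 23.9 on A, 45.1, 46.3, 49.6 and 18.7 on B and 21.6, 47.7, 51.5 and 41.9 on C, and did not pass the test (-1.003, SE 0.31, limma adjusted p = 0.0675). Its value for cat 36 on B (18.7) was within the range of A.

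MRPL28, a core protein of the large subunit, had 74.8, 107, 109 and 124 scaled reads on A, 195, 203, 150.5 and 184 on B and 207, 326, 155 and 222 on C, without overlap. It was lower on A (-0.96, SE 0.21, limma adjusted p = 0.0178). MRPL23, which lies near the exit of the polypeptide tunnel, had 111, 83.3, 73.2 and 148 on A, 196, 212, 241 and 278 on B and 194, 203, 147 and 148 on C, and it was lower on A (-0.98, SE 0.21, limma adjusted p = 0.0159) although cat 31 lay at the level of cats 37 and 38. MRPL21 had 147, 107, 105 and 192 on A, 251, 298, 196 and 373 on B and 238, 239, 202 and 163 on C. Cat 31 again lay within the range of the other flow cells, and the difference passed the threshold (-0.83, SE 0.22, limma adjusted p = 0.0390). MRPL55 was the last of the 9 genes by adjusted p and is named here after its values were seen. It had 28.5, 28.2, 27.8 and 24.7 on A, 57.5, 85.8, 39.4 and 76.6 on B and 67.5, 86.5, 24.3 and 77.2 on C, so that cat 37 on C was as low as the libraries of A, and its log2 difference was -1.11, SE 0.31, limma adjusted p = 0.0480.

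In the small subunit, 3 bacterial homologues (MRPS15, MRPS9 and MRPS17) and 1 mitochondria-specific gene (MRPS25) were called lower on A. MRPS15 had 109, 117, 135 and 128 scaled reads on A, 276, 282, 248 and 321 on B and 254, 385, 252 and 205 on C. Its 4 values on A spanned a narrow range, all of them below the other 8, and the log2 difference was -1.16, SE 0.19, limma adjusted p = 0.00460, a 2.24-fold lower level. MRPS25 had 116, 138, 136 and 179 on A, 251, 369, 279 and 428 on B and 349.7, 413, 242 and 279 on C, again without overlap (-1.18, SE 0.21, limma adjusted p = 0.00773). MRPS9 rested on fewer reads (18 to 84 per library), with 12.1, 28.2, 20.2 and 15.2 on A, 75.5, 46.3, 66.2 and 55.2 on B and 36.5, 29.9, 25.8 and 41.9 on C. For this gene the libraries of C lay between those of A and B, cats 23 and 37 crossed, and the difference of A from the mean of B and C was -1.26, SE 0.26, limma adjusted p = 0.0124. MRPS17 had 54.5, 43.0, 64.8 and 75.0 on A, 123, 106, 77.98 and 86.4 on B and 101, 102, 94.4 and 91.9 on C, without overlap but with cat 31 (75.0) close to cat 35 (77.98), and its log2 difference was -0.73, SE 0.20, limma adjusted p = 0.0469. MRPS5 also had all 4 libraries of A below the others (30.4, 65.8, 58.1 and 47.9 against 67.7 to 115) and just missed the threshold (-0.82, SE 0.24, limma adjusted p = 0.0558). The gene with the largest positive difference at an unadjusted p under 0.05 was MRPS10, singled out after its values were seen, with 209, 129, 163 and 207 on A and 112 to 149 on the others (0.43, SE 0.18, limma adjusted p = 0.188).

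**Figure D3:**
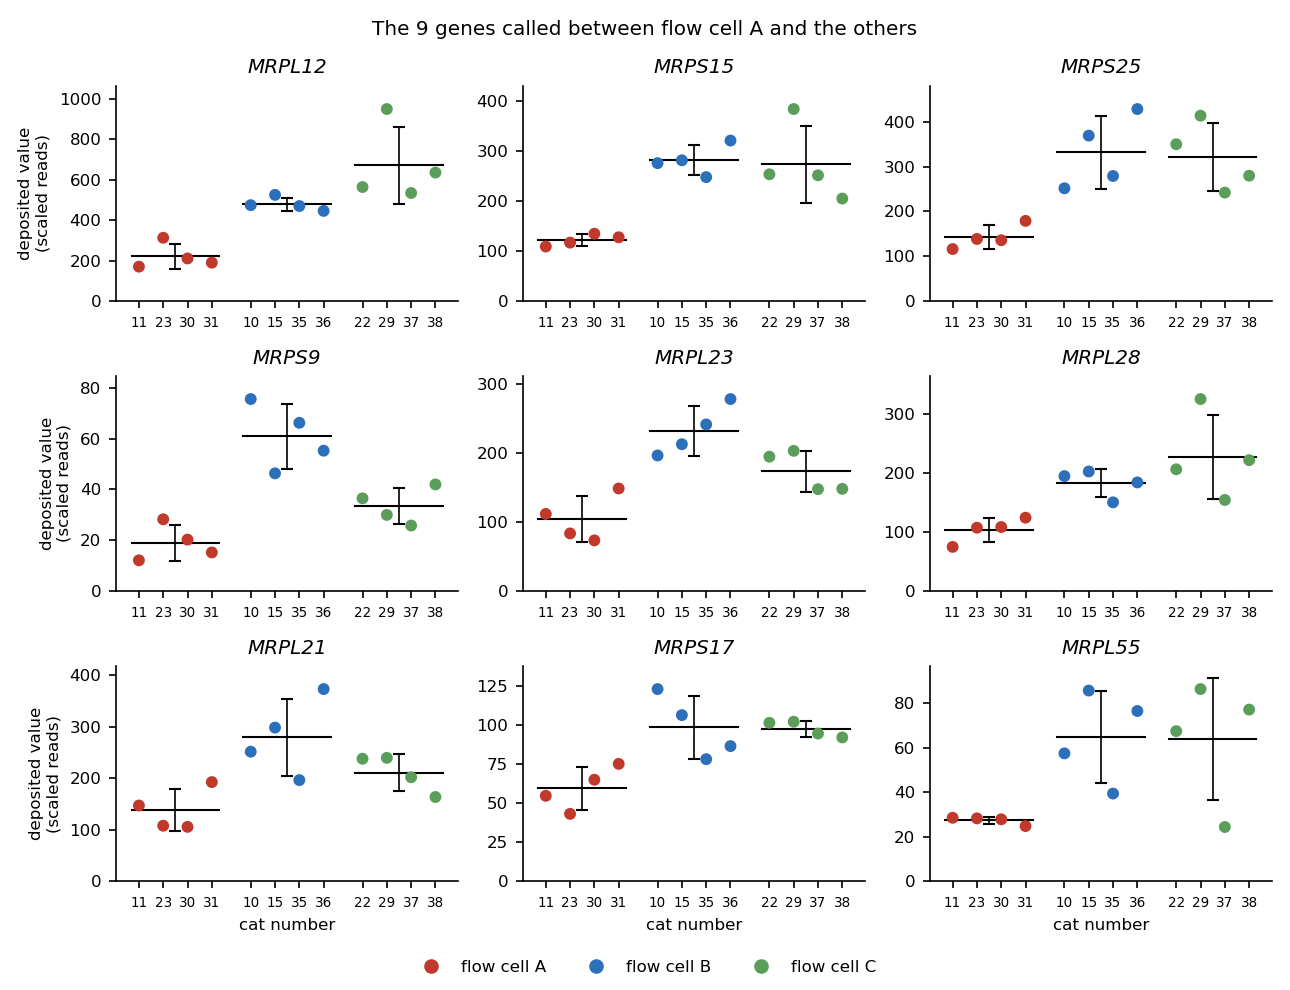
Scaled reads of the 9 genes called between flow cell A and the other flow cells, 1 point per library, by cat number and flow cell, with the mean and SD of 4 libraries. The y axes start at 0 and differ between genes. MRPL12, MRPS15, MRPS25, MRPL28 and MRPS17 show no overlap between A and the other 8 libraries, whereas MRPS9, MRPL23, MRPL21 and MRPL55 overlap.

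These 9 calls were not equally firm. MRPL12, MRPS15 and MRPS25 stayed under the threshold with each of the 12 libraries left out in turn (limma adjusted p at most 0.0179, 0.0290 and 0.0441). MRPL23 and MRPL28 did so in 11 of the 12 fits and MRPS9 in 10, whereas MRPL21 passed in 3, MRPL55 in 2 and MRPS17 in 1. Between the cats with congestive HF alone the log2 differences were -1.42 for MRPL12 (limma SE 0.26), -1.07 for MRPS15 (SE 0.27) and -1.04 for MRPS25 (SE 0.30), with limma adjusted p of 0.104, 0.138 and 0.175. Without the size factors they were -0.98, -0.77 and -0.79, where the median of all genes was 0.41. In a RefSeq gene table of another cat assembly (F.catus_Fca126_mat1.0), which held 77 of the 78 symbols, 31 of them overlapped another gene. Of the 9 genes called this was the case for MRPL21, which overlapped IGHMBP2, and whether the counting used strand was not given in the sources used here.

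By origin of the proteins, the medians of all 12 libraries lay apart in the large subunit and close together in the small subunit. Among the 30 bacterial homologues of the large subunit, 5 were called lower on A, 15 had an unadjusted limma p under 0.05, and the median log2 difference was -0.45. Among the 21 mitochondria-specific proteins of the large subunit, 0 were called, 0 had an unadjusted p under 0.05, and the median was -0.09. With the cats with congestive HF alone the medians were -0.42 and 0.16, and without the size factors they were -0.06 and 0.29. In the small subunit, the medians were -0.40 for the 16 bacterial homologues (3 called, 6 at an unadjusted p under 0.05) and -0.38 for the 10 mitochondria-specific proteins (1 called, 5 at an unadjusted p under 0.05), or -0.01 and 0.0040 without the size factors. With the cats with congestive HF alone they were -0.27 and -0.42, in the reverse order. Over all 8715 genes tested, 3.61% were called lower on A and 1920 had an unadjusted limma p under 0.05. Their median was 0.03, or 0.03 with the cats with congestive HF alone and 0.41 without the size factors. These lists hold only genes with an MRPL or MRPS symbol, so the 0 of 21 holds for such genes alone. The 5 mitoribosomal proteins with other symbols were not sorted by subunit or origin, and 1 of them, GADD45GIP1, was called lower on A. No test was made of the difference between lists.

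MRPL3 and MRPL44 of the large subunit and MRPS14 and MRPS22 of the small subunit are genes in which human variants have been found in patients with mitochondrial disease that includes hypertrophic cardiomyopathy. MRPL3 had 157, 173, 238 and 191 scaled reads on A, 274, 359, 364 and 261 on B and 221, 248, 336 and 424 on C. Cat 30 on A lay above cat 22 on C, all other values of A lay below the other flow cells, and the difference did not pass the test (-0.69, SE 0.21, limma adjusted p = 0.0615). MRPL44, which resembles an RNase III enzyme, had 43.9, 87.3, 82.5 and 53.4 on A, 60.9, 129, 99.3 and 109 on B and 54.0, 82.0, 112 and 83.8 on C, with broad overlap (-0.45, SE 0.26, limma adjusted p = 0.340). MRPS14 ranged from 59.8 to 94.9 on A, against 44.9 to 84.4 elsewhere (0.12, SE 0.21, limma adjusted p = 0.775). MRPS22 ranged from 125 to 203 on A, against 105 to 243 elsewhere, with means of 165.6 ± 33.2 (SD, n = 4) and 166.1 ± 42.3 (SD, n = 8) and a log2 difference of 0.01, SE 0.22, limma adjusted p = 0.978. The sign of the differences of MRPS14 and MRPS22 changed when single libraries were left out. Of genes with other mitochondrial disease in people, MRPS34, which is needed for a stable small subunit, had 18.3, 30.9, 11.8 and 21.5 on A and 19.6 to 43.3 on the others, with a log2 difference of -0.75, SE 0.30, limma adjusted p = 0.151. MRPS2, MRPS7, MRPS16 and MRPS28 overlapped between A and the other flow cells, with 14.96 to 25.5 against 12.9 to 58.5, 30.3 to 94.1 against 33.8 to 82.4, 42.1 to 76.7 against 35.4 to 94.2, and 84.5 to 115 against 103 to 146 scaled reads.

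Of the 8 genes listed for particular roles or places (MRPL12, MRPL10, MRPL45, MRPL58, MRPS30 and the paralogues of S18), MRPL12 was the one called. MRPL45, which holds the ribosome at the inner membrane, had 33.3 to 62.2 scaled reads on A, against 45.1 to 76.6 elsewhere (-0.27, SE 0.23, limma adjusted p = 0.525). MRPL58, a peptidyl-tRNA hydrolase built into the large subunit, had 26.9 to 53.4 on A, against 21.5 to 45.9 elsewhere, and MRPS30, a large subunit protein in spite of its symbol, 70.9 to 115 and 72.1 to 108. The 3 paralogues of bacterial S18 did not show a called difference. MRPS18A, which lies in the large subunit, had 189, 99.4, 108 and 206 on A and 99.3 to 254 on the others (-0.07, SE 0.25, limma adjusted p = 0.902), a difference whose sign changed without the size factors (0.33, below the median of all genes of 0.41). MRPS18B had 30.9, 71.2, 73.2 and 68.6 on A and 44.1 to 124 on the others (-0.64, SE 0.29, limma adjusted p = 0.209). MRPS18C, the paralogue closest to bacterial S18 in the small subunit, had 94.6, 68.5, 102 and 116 on A and 84.6 to 183 on the others (-0.43, SE 0.23, limma adjusted p = 0.278). How the counting treated reads that match more than 1 gene was not given in the sources used here, and the likeness of the 3 paralogues was not examined.

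Of the genes with the most reads besides MRPL12, MRPL15 had 236, 406, 221 and 184 scaled reads on A and 233 to 491 on the others (-0.45, SE 0.22, limma adjusted p = 0.251). MRPL33 had 399, 258, 196 and 491 on A and 162 to 298 on the others (0.37, SE 0.24, limma adjusted p = 0.388). Its 2 highest values were those of cats 11 and 31, both on A, and its 2 other values on A lay among those of B and C. At the other end, MRPL54, MRPL36, MRPL35 and MRPL42 had between 2 and 36 reads per library, and their values of 2.53 to 21.5 on A overlapped those of B and C, 2.25 to 28.8.

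In 5 further lists around mitochondrial gene expression, 5 genes were called, all lower on A. Over all 8715 genes tested, 3.61% were called lower and 1.84% higher, and 1920 had an unadjusted limma p under 0.05. Of 5 mitoribosomal proteins that carry other symbols, GADD45GIP1 was lower on A (38.3 against 81.2 mean scaled reads, log2 difference -1.07, SE 0.21, limma adjusted p = 0.0111), whereas DAP3, AURKAIP1, PTCD3 and CHCHD1 were not called, with log2 differences of -0.70, -0.43, -0.36 and -0.12. None of 15 tested translation factors was called by limma, 2 had an unadjusted p under 0.05, and their median was -0.19. TUFM, the mitochondrial elongation factor Tu, had a log2 difference of -0.56 (SE 0.25, limma adjusted p = 0.208). In the list for mitoribosome assembly and rRNA modification, 2 of 20 tested genes were lower on A. One was NGRN, an assembly factor (-0.91, SE 0.25, limma adjusted p = 0.0404). The other was MCAT, which was in the list although it encodes an enzyme of mitochondrial fatty acid synthesis (-1.44, SE 0.32, limma adjusted p = 0.0179). In the list for mitochondrial transcription, 1 of 6 tested genes was lower on A, PPARGC1A, a coactivator of mitochondrial biogenesis, with 20.6 against 86.4 mean scaled reads (log2 difference -1.78, SE 0.43, limma adjusted p = 0.0275), whereas TFAM did not pass (-0.46, SE 0.29, limma adjusted p = 0.374). Of 10 tested mitochondrial aminoacyl-tRNA synthetases 1 was lower, TARS2 (-1.24, SE 0.21, limma adjusted p = 0.00650).

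Respiratory subunits encoded in the nucleus were lower on A in 26 of the 58 that were tested and higher in 0. Over all genes tested, 3.61% were called lower. In the fit limited to genes with a mean of at least 50 reads, 350 of all 3084 genes were called lower. The list held subunits of complexes I and II (NDUF and SDH genes) and of ATP synthase (ATP5 genes), and none of complexes III and IV. The median log2 difference was -0.71 (-0.32 without the size factors), and in 24 (41.4%) all 4 libraries of A lay below the other 8. Their summed scaled reads ranged from 36111 to 50780 on A and from 58066 to 93295 on B and C, without overlap. Cytosolic ribosomal proteins, of which 3 of 77 tested were lower and 0 higher on A, had a median of -0.12 (0.27 without the size factors). The 13 genes that mitochondrial DNA encodes were listed at 0 in every library, so their level could not be set beside that of the mitoribosome.

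**Figure D4:**
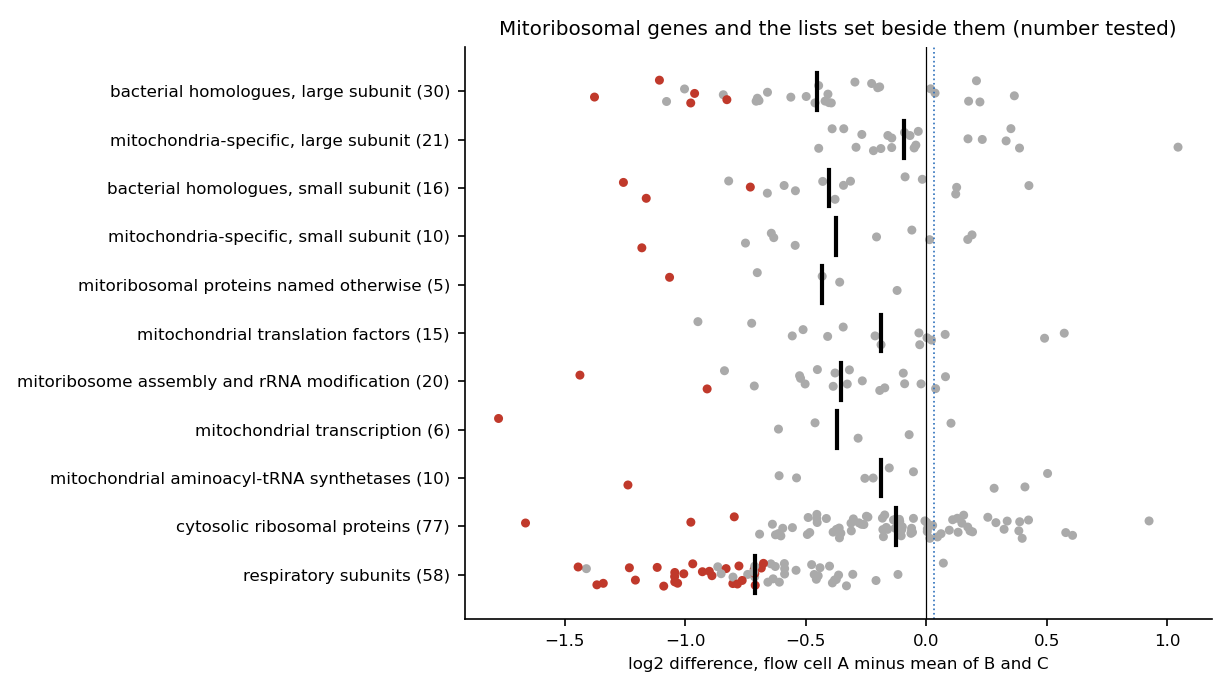
Log2 difference between flow cell A and the mean of B and C for the tested genes of each list, 1 point per gene, with genes at a limma adjusted p under 0.05 in red and the others in gray. Black bars are medians, the dotted line is the median of all genes tested, and vertical scatter within a list carries no value. Respiratory subunits have the lowest median (-0.71, 26 of 58 called). The mitochondria-specific genes of the large subunit with an MRPL or MRPS symbol have the highest (-0.09, 0 of 21 called). Without the size factors these medians were -0.32 and 0.29.

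Between flow cells B and C, 0 of the 78 genes were called by limma, as were 0 of all genes tested (0%). At an unadjusted p under 0.05 there were 5 of the 78 genes and 686 of all 8715. edgeR and DESeq2 also called 0 of the 78. The median log2 difference was -0.09 for the 78 genes (0.04 without the size factors) and 0.0018 for all genes tested (0.13 without them). On simulated data of this comparison, limma recovered 0% of genes given a log2 change of 1 and 68.5% of those given a log2 change of 2, so differences of the size seen between A and the others could have been missed.

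Outcome showed no call. Between 6 cats with congestive HF and 3 cats with ATE, limma called 0 of the 78 genes and 0% of all genes tested, and edgeR and DESeq2 called 0 of the 78. At an unadjusted limma p under 0.05 there were 3 of the 78 genes and 383 of all 8715. The median log2 difference was -0.07 (0.15 without the size factors) and -0.0020 for all genes (0.21 without them). With flow cell as a covariate, limma again called 0 genes, and 4 of the 78 had an unadjusted p under 0.05. On simulated data of this comparison, 0% of genes given a log2 change of 1 and 66% of those given a log2 change of 2 were recovered. The simulation used the spread within flow cells and held no difference between them, whereas the fit of outcome had no term for flow cell. Recovery in the real data may therefore be lower.

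The genes with the smallest p in each direction were MRPL51 and MRPS21, higher in congestive HF, and MRPS6 and MRPL38, lower, none of them past the adjusted threshold. MRPL51, a protein of the large subunit, was the most variable of the 4 and had from 1 to 60 reads per library. In congestive HF its scaled reads had a minimum of 10.0, a median of 29.3 and a maximum of 47.9, and in ATE they were 22.8 (cat 23), 1.13 (cat 10) and 2.94 (cat 38). The ATE values of cats 10 and 38 rested on 1 and 4 reads and lay below all cats with congestive HF, whereas cat 23 lay among them, and the log2 difference was 2.13 (SE 0.67, limma adjusted p = 0.963). MRPL38 ran from 32.3 to 50.2 with a median of 42.5 in congestive HF and was 60.4 (cat 23), 67.6 (cat 10) and 59.6 (cat 38) in ATE, without overlap (log2 difference -0.59, SE 0.26, limma adjusted p = 0.963). With so few cats such a gap can arise by chance in a gene picked by its p, and its share over all genes was not counted. MRPS6, a homologue of bacterial S6, ran from 96.5 to 269 with a median of 190.0 in congestive HF and was 244 (cat 23), 303 (cat 10) and 354 (cat 38) in ATE, with an overlap (-0.78, SE 0.33, limma adjusted p = 0.963). MRPS21 ran from 14.98 to 32.3 with a median of 21.4 in congestive HF and was 9.40 (cat 23), 18.04 (cat 10) and 11.0 (cat 38) in ATE (0.74, SE 0.35, limma adjusted p = 0.963).

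**Figure D5:**
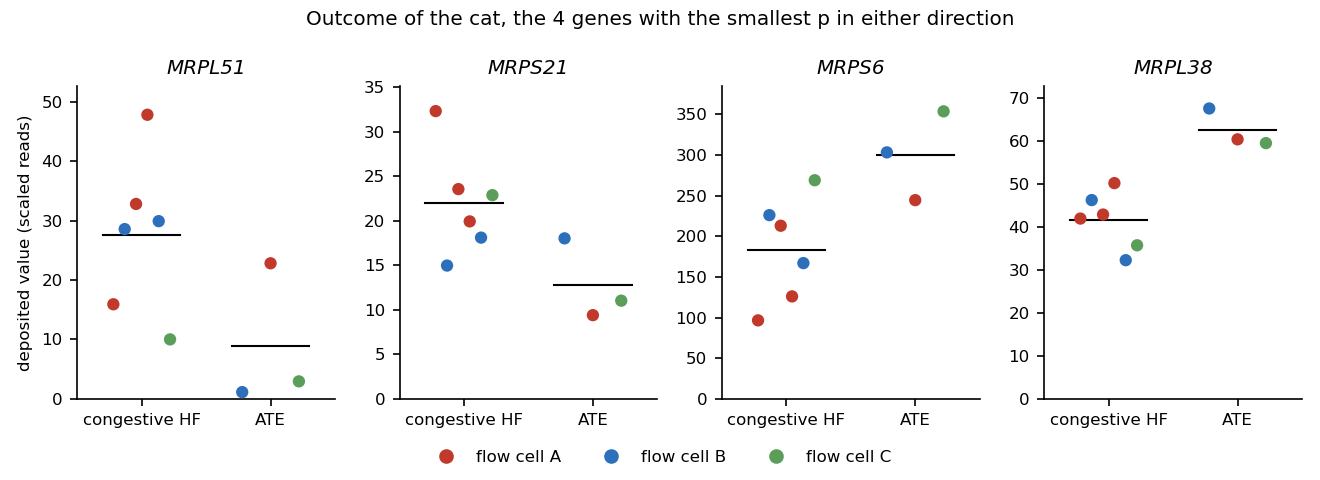
Scaled reads of MRPL51, MRPS21, MRPS6 and MRPL38 in the 6 cats with congestive HF and the 3 cats with ATE, 1 point per cat, coloured by flow cell, with a line at the mean. These are the genes with the smallest unadjusted p in either direction, and MRPL38 is the one of the 4 in which the outcomes do not overlap (32.3 to 50.2 against 59.6 to 67.6). The share of all genes without such overlap was not counted.

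Myocardial fibrosis, given as the percentage of classified heart tissue (fibrotic plus cardiomyocyte area) that was fibrotic, with endocardial and epicardial fibrosis left out, was known for 8 of the cats (3 on A, 4 on B and 1 on C). It gave no call among the 78 genes. By Spearman's rho with an exact two-sided permutation test, 0 of the 78 genes and 0% of all genes had a Benjamini-Hochberg adjusted p under 0.05, and 1 of the 78 and 247 of the 8715 had an unadjusted p under 0.05. limma slopes also called 0. The median rho was -0.02, with 40 negative values, and 0 for all genes. MRPL52 showed the smallest p (rho = 0.88, exact permutation p = 0.00724, adjusted p = 1). Its Pearson's r of log2 values was 0.69 (exact permutation p = 0.0569), 0.82 without the 2 cats farthest from the median fibrosis and 0.67 after centring each flow cell (7 cats, exact permutation p = 0.167), and without the size factors its rho was -0.12. MRPS16 had rho = 0.62 (exact permutation p = 0.115, adjusted p = 1), with r = 0.45 (exact permutation p = 0.262). MRPL47 had rho = -0.62 (exact permutation p = 0.115, adjusted p = 1). For MRPL47, r was -0.73 (exact permutation p = 0.0346) and moved to -0.09 without the 2 cats farthest from the median, so that the relation over all 8 cats rested on those 2 cats, whereas after centring each flow cell it was -0.87 (7 cats, exact permutation p = 0.0417). MRPL57 had rho = -0.52 (exact permutation p = 0.197, adjusted p = 1), with r = -0.39 (exact permutation p = 0.352).

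Age, known for 9 of the cats (4 on A, 3 on B and 2 on C), showed more negative than positive values of rho. Of the 78 genes 53 had a negative rho, with a median of -0.16. Over all genes 52.5% were negative, with a median of -0.02. The tilt varied with single cats left out, from 42 negative genes without cat 30 to 61 without cat 15. The median rho then ran from -0.24 to -0.04. In limma slopes with flow cell as a covariate, 47 of the 78 and 53.1% of all genes were negative. By the exact permutation test 0 of the 78 and 0% of all genes passed the adjusted threshold, and limma slopes called 0. At an unadjusted p under 0.05 there were 3 of the 78 genes, all negative, and 415 of all 8715. With flow cell as a covariate, limma slopes gave 8 of the 78 genes and 1010 of all genes at an unadjusted p under 0.05, and without the size factors the exact test gave 24 of the 78 and 930 of all genes. MRPS35, a mitochondria-specific protein of the small subunit, had the smallest p (rho = -0.82, exact permutation p = 0.0108, adjusted p = 0.816). Its scaled reads ran from 124.6 to 347.8 with a median of 191.7. Its r over log2 values was -0.79 (exact permutation p = 0.00695), or -0.84 after centring each flow cell (exact permutation p = 0.0382), and between -0.82 and -0.61 without the 2 cats farthest from the median age, for which a tie allowed 2 choices. MRPL14 had rho = -0.72 (exact permutation p = 0.0369, adjusted p = 0.897), with r = -0.72 (exact permutation p = 0.0302), -0.78 with flow cells centred (exact permutation p = 0.0625) and between -0.45 and -0.31 without the 2 farthest cats. Positive values were smaller, with rho = 0.60 for MRPL41 (exact permutation p = 0.0968, adjusted p = 0.918) and 0.53 for MRPL53 (exact permutation p = 0.148, adjusted p = 0.929). For the cytosolic ribosomal proteins the median rho with age was -0.48, with 71 of 77 negative.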

How the data were processed

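RNA of left ventricular tissue was sequenced directly (SQK-RNA002 kit), with 1 library per cat. Base calling by the authors used Guppy with a quality filter, mapping used minimap2 and the felCat9 genome, and featureCounts gave the reads per gene. The deposited signal values are reads per gene divided by 1 size factor per library (0.699 to 2.07). All values (100%) were whole multiples of 1 read within 0.001, and median-of-ratios factors computed anew matched them to a relative difference of 2.89e-15. The test design had allowed for undivided counts and named edgeR for them, and because the values were divided, limma took its place.

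The filter kept genes with 10 or more reads in 3 or more of the 10 libraries whose outcome was known (8715 of 30785). limma with an intensity trend was fitted to log2(value + 1), so that fold changes of genes with few reads are understated, with 1 mean per flow cell over 12 libraries (A minus the mean of B and C, and B minus C) or 1 mean per outcome over the 10 libraries of known outcome. Fibrosis and age were compared by Spearman's rho with two-sided exact permutation over the cats. p-values were adjusted by Benjamini-Hochberg over all genes tested, never over a list. Outcome, age and fibrosis were looked up by cat number in the study's cohort list. p-values measure the spread between single libraries of different cats, and depth ranged from 789257 to 2263110 reads on genes, so genes with few reads have a wide counting error. On simulated data of A against the others, limma recovered 11% of genes given a log2 change of 1 and 81% of those given a log2 change of 2.

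The 78 genes, the lists and the tests were chosen with earlier results of these data known. Named genes were those with known disease or particular roles, up to 8 called in each direction between A and the others, the 3 with the most and the 3 with the fewest reads (4 with a tie), and up to 2 in each direction with the smallest p for outcome, fibrosis and age. Other genes are said to be chosen after their values were seen or belong to the lists. Alternatives were pseudocounts of 0.5 and 2, reads without the size factors, TMM-scaled log2 CPM, edgeR and DESeq2 on the recovered reads, other filters on reads, the barcode number as a replicate block, congestive HF cats alone, flow cell as a covariate, limma slopes, Pearson's r, the libraries labelled as cats 22 and 29 entered as labelled, and each library left out in turn. limma slopes with those 2 libraries were added after the data were seen. Fits used limma 3.58.1, edgeR 4.0.16 and DESeq2 1.42.0 in R 4.3.3, permutations used scipy 1.17.1 in Python 3.11.15, and plots used matplotlib 3.10.9. Lengths and coordinates of genes were left out, because the RefSeq table was made on an assembly other than felCat9. Some genes of the marker and pathway lists were not analysed here.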

Additional observations from a re-analysis of the deposited data

Results flagged for a closer look

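In 8 of the 130 groups examined, 1 library lay apart from the others of its group by Dixon's test (the gap to its neighbour over the range of the group exceeded the critical value). Chance alone gives about 1 in 20. Cat 36 on flow cell B was low for MRPL10 (18.7 scaled reads against 45.1 to 49.6 in the other 3 libraries of B) and for MRPS34 (19.6 against 39.5 to 43.3), and high for MRPL45 (76.6 against 45.1 to 48.1). On the same flow cell, cat 10 was high for MRPS18C (145.4 against 116.6 to 118.5). On flow cell A, cat 31 was high for MRPL58 (53.4 against 26.9 to 29.9) and cat 11 low for MRPS18B (30.9 against 68.6 to 73.2). On flow cell C, cat 38 was low for MRPL42 (7.35 against 13.5 to 14.4), a value that rests on few reads. The summed scaled reads of the 78 genes were high for cat 29 on C (10069.5 against 8470 to 8668).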

How the results depend on the processing

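Between flow cell A and the others, where 9 of the 78 genes were called, the count was 9 under TMM scaling, 9 under pseudocounts of 0.5 and of 2, 7 with edgeR, 11 with the barcode number as a replicate block and 6 without a read filter. DESeq2 called 16. Filters of at least 10 reads in all libraries or 50 reads on average gave 14 each, where 67 and 52 of the 78 genes were tested. Congestive HF cats alone gave 0 and reads without the size factors 0. Leaving out single libraries gave 3 to 11. Over all genes, 160 higher and 315 lower calls became 96 and 6 without the size factors, 346 and 478 with DESeq2, 3 and 1 with congestive HF cats alone, and 47 to 530 calls in all with single libraries left out (47 without cat 11, 171 without cat 31 and 287 without cat 15). The higher and lower calls over all genes were 218 and 247 with edgeR and 200 and 367 with the barcode block. Without a read filter they were 135 and 196 of 18070 genes. At 10 reads in all libraries they were 165 and 369 of 4584 genes, and at a mean of 50 reads 171 and 350 of 3084. The barcode number names the tag of a library in its pool and not a shared cat, and it changed no other count of called members. B against C, outcome, fibrosis and age gave 0 of the 78 genes under every alternative run, although DESeq2 called 23 genes of all between B and C and 1 for outcome, against 0.

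The median share of reads was 0.638% and 0.502% without the 5 genes with the most reads. The sign changed for MRPL45 (0.12) and MRPS18A (0.33) without the size factors, for MRPS18A with congestive HF cats alone (0.21), for MRPS22 with DESeq2 (-0.0058), and for the rho with fibrosis of MRPL52 (-0.12) and MRPS16 (-0.24) without the size factors. With single libraries left out, the log2 difference ranged from -0.0185 to 0.200 for MRPS14, from -0.0907 to 0.142 for MRPS22 and from -0.24 to 0.11 for MRPS18A. The causes were not tested. With 1 library per cat, spread between cats and technical spread cannot be told apart, and MRPL51, MRPL54, MRPL36, MRPL35 and MRPL42 are limited by their few reads.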
